A study of Mus musculus with 4 samples.

Results

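Levels of 8 genes of the androgen receptor axis were read from RNA-seq read counts. The cells were Myc-CaP, a line of prostate cancer from Hi-Myc transgenic FVB mice. The genes were picked by name: Foxa1 and Hoxb13, transcription factors that work with the receptor, and Fkbp5, Tmprss2, Ndrg1, Slc45a3, Mme and Pmepa1, known as its targets. All 8 of 8 were found among the 52636 genes of the deposited table, and 5 of 8, Foxa1, Hoxb13, Fkbp5, Slc45a3 and Mme, passed a filter of at least 1 CPM (counts scaled to a fixed library size) in at least 1 library, as did 12351 genes in all.

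There were 4 groups: shFAK cells with norepinephrine, shFAK cells with vehicle, shNC cells with norepinephrine and shNC cells with vehicle. In shFAK cells, stable hairpin RNAs targeted focal adhesion kinase, a tyrosine kinase of cell adhesions encoded by Ptk2. The shNC cells had a negative control hairpin. Norepinephrine (NE), the transmitter of sympathetic nerves, was given at 10 µM for 24 h. All cells shared the Hi-Myc transgene, which an androgen-responsive probasin promoter drives in prostate epithelium, and grew in DMEM with heat-inactivated fetal bovine serum. The sources used here do not give the number of hairpins, whether a line was a clone or a pool, or added androgen. Each group was 1 library, which leaves every difference without a replicate check, and hairpin, line and culture cannot be told apart.

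The androgen receptor is a transcription factor that the hormone releases from a chaperone complex and that then binds DNA at steroid response elements. In prostate epithelium its sites are opened by pioneer factors, of which FOXA1 is the best known, and HOXB13 binds at many of the same sites in human prostate cells. Its targets include a set of secretory and membrane proteins of luminal cells, and Fkbp5, a co-chaperone that acts back on steroid receptors.

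Total counts were between 23410486 in the shFAK NE library and 29948640 in the shNC vehicle library. Ptk2 had 1248 counts in shFAK NE and 1294 in shFAK vehicle, against 3158 in shNC NE and 3547 in shNC vehicle, that is 43.9% and 40.8% of the control level with NE and with vehicle. Of 12 luminal epithelial markers, 7 passed the filter. Cldn3, a tight junction protein, was abundant at 281 to 490 CPM, while Krt18, Epcam and Cdh1, which define epithelium, had at most 4, 15 and 7 counts in any library. Markers of luminal epithelium were thus in part absent from these libraries.

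Levels are given as RPKM, which is CPM after TMM scaling of the libraries, divided by the gene length of the table in kilobases, so that genes can be set side by side. Foxa1 was the most abundant of the 8 genes and Fkbp5 the next. Hoxb13, Mme and Slc45a3 followed in that order, and the 4 values of each of these 5 genes did not overlap those of its neighbours. Foxa1 lay above 97.4% of the protein-coding genes that passed the filter by mean RPKM, Fkbp5 above 91.9%, Hoxb13 above 73.2%, Mme above 31.0% and Slc45a3 above 14.1%. Pmepa1, Ndrg1 and Tmprss2 were at or near 0 and cannot be ordered at this depth. Fewer cells that express a gene and less RNA per cell cannot be told apart in such bulk libraries.

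**Figure D1:**
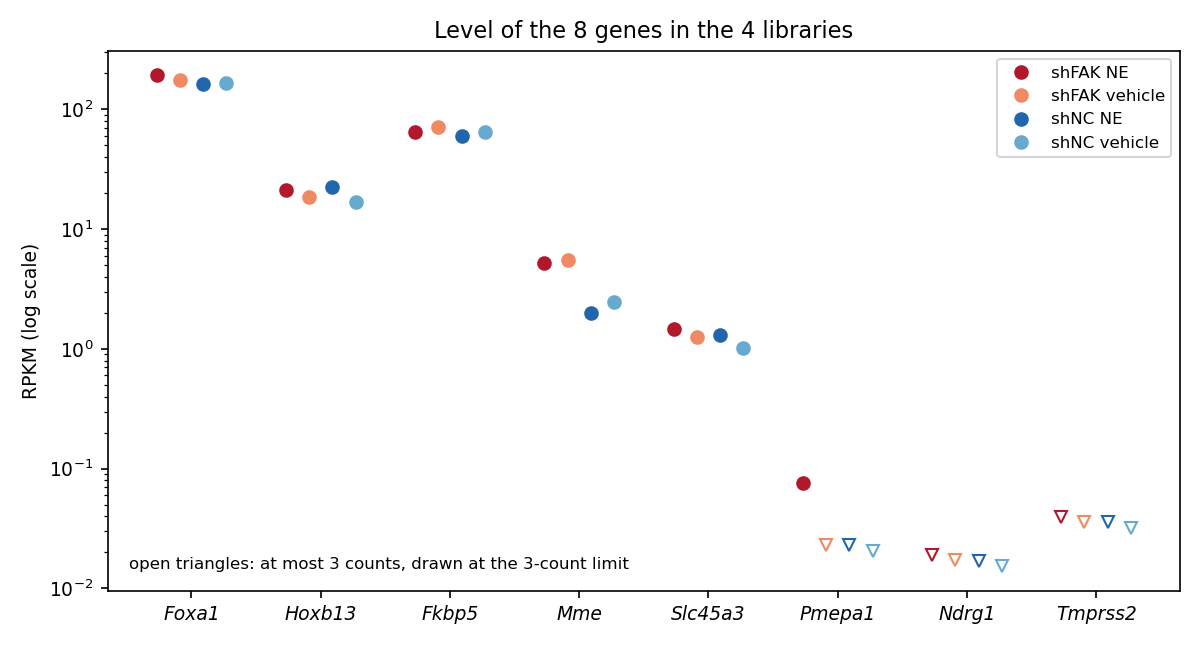
RPKM of the 8 genes (log axis) in each of the 4 libraries, 1 point per library with no error, since each group had 1 library. Open triangles mark libraries with at most 3 counts, drawn at the 3-count limit. Mme is the gene whose shFAK points, 5.26 and 5.51, stand clear above its shNC points, 1.98 and 2.47.

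Pairs of libraries were compared by the log2 ratio of their CPM, with a prior count of 2 and an exact 99% Clopper-Pearson interval, which covers counting error only. A gene met the size rule when the ratio was at least 1 in size, a 2-fold difference, and the interval left out 0. Hairpin and treatment were also fitted as additive terms to the 4 libraries with edgeR's quasi-likelihood test and Benjamini-Hochberg adjustment over all 12351 genes, with calls at an adjusted p under 0.05. Its spread comes from 1 residual degree of freedom pooled over genes, so its p-values hold only if NE acts alike in both lines, and they do not measure variation between cultures. Of the 5 genes that passed the filter, Mme alone met the size rule in shFAK over shNC, with NE and with vehicle, where 2.62% and 1.42% of the tested genes were higher. None of the 5 genes met it in NE over vehicle, in shFAK cells, where 0.874% of the tested genes did, or in shNC cells, where 0.858% did.

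**Figure D2:**
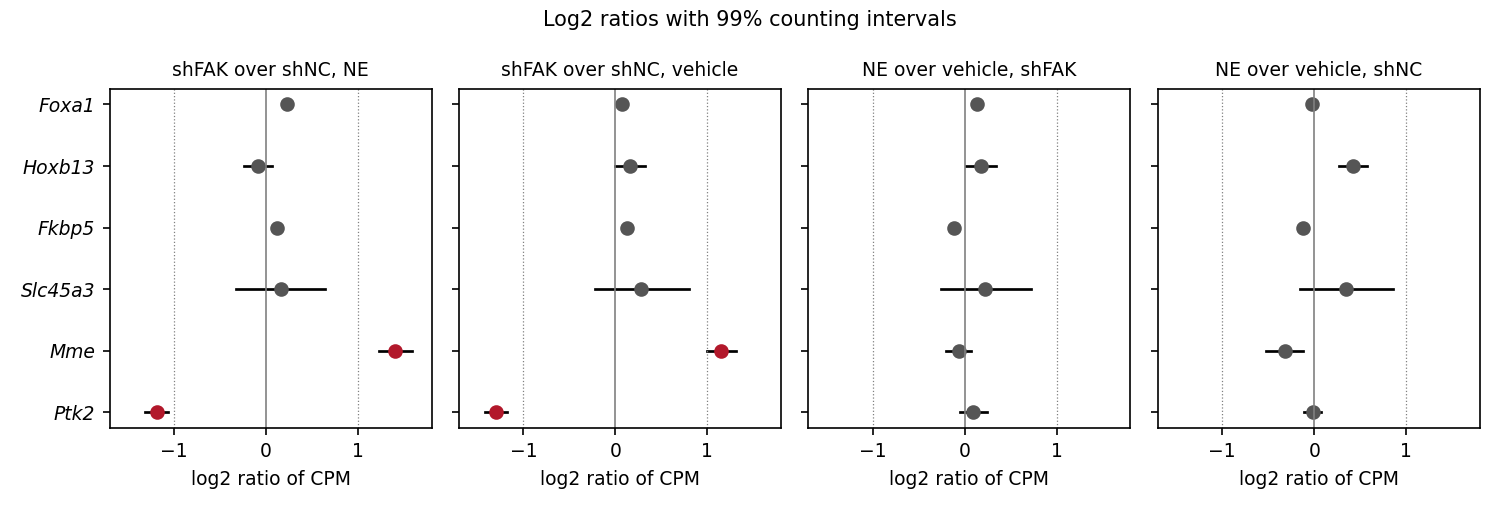
Log2 ratios of CPM for the 5 genes that passed the filter and for Ptk2, in shFAK over shNC with NE and with vehicle and in NE over vehicle in shFAK and shNC cells. Bars are 99% counting intervals, dotted lines mark 2-fold, and red points met the size rule. Mme lies at 1.41 and 1.15 in the hairpin pairs, and Foxa1 and Fkbp5 stay within 0.23 of 0 in every pair.

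Foxa1 (ENSMUSG00000035451, chr12:57540628-57546916, minus strand, mm10) encodes the pioneer factor that opens chromatin for the receptor. Its promoter is shown because it is the most abundant of the 8 genes and the one whose window holds a forkhead motif, the kind of site its own protein binds. The window runs upstream of the start in RefSeq (GRCm38.p6), chr12:57546122-57546361 on the minus strand. It lies inside the gene's span in the table. It has 240 bases, without the last 10 before the start, which another annotation covers with an exon. Capitals mark the match GTAAACA, the reverse complement of TGTTTAC, at bases -141 to -135 from the start.
Foxa1 promoter: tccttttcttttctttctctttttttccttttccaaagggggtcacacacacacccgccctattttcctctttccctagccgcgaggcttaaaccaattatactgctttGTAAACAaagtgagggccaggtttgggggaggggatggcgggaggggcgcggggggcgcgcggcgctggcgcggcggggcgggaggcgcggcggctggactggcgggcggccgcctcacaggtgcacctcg
Foxa1 had 193 RPKM in shFAK NE and 176 in shFAK vehicle cells, against 164 in shNC NE and 167 in shNC vehicle cells. The 2 shFAK libraries were both above the 2 shNC libraries, by a small margin. The log2 ratio of shFAK over shNC was 0.23 (99% interval 0.19 to 0.27) with NE and 0.07 (0.03 to 0.11) with vehicle. NE over vehicle gave 0.13 (0.09 to 0.17) in shFAK cells and -0.03 (-0.07 to 0.02) in shNC cells. The edgeR hairpin term of 0.15 ± 0.08 (SE) was not called, with an adjusted p of 0.158. It was called when libraries were scaled by total count alone, with an adjusted p of 0.0284, and once a trend of the ratios with gene length and GC content, called the length trend here, was removed, with an adjusted p of 0.00761.

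Hoxb13 (ENSMUSG00000049604, chr11:96194316-96197447, plus strand) encodes a homeobox factor that marks the posterior body axis and the prostate and that partners the receptor in human prostate cells. It had 21.2 RPKM in shFAK NE and 18.7 in shFAK vehicle cells, against 22.5 in shNC NE and 16.8 in shNC vehicle cells. Both NE libraries were above both vehicle libraries, and the shFAK values lay inside the range of the shNC values. NE over vehicle gave a log2 ratio of 0.18 (99% interval 0.02 to 0.34) in shFAK cells and 0.42 (0.27 to 0.58) in shNC cells. The NE term of edgeR was 0.30 ± 0.09 (SE) with an adjusted p of 0.0143, so Hoxb13 was called higher with NE, 1 of the 5 genes tested, where the term called 5.04% of all genes higher. That call was lost with no filter on low counts (adjusted p = 0.0752), with the length trend removed (0.0971), with DESeq2's Wald test (0.229) and against a threshold of 1.2-fold (1.00). The response in shFAK minus that in shNC was -0.25 (99% interval -0.46 to -0.03), short of the size rule. The level of Foxa1 over that of Hoxb13 in RPKM was 9.10 in shFAK NE and 9.38 in shFAK vehicle, against 7.32 in shNC NE and 9.99 in shNC vehicle.

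Fkbp5 (ENSMUSG00000024222, chr17:28399095-28517524, minus strand) encodes FKBP51, an immunophilin that sits on HSP90 in steroid receptor complexes and is among the most strongly androgen-induced genes of human prostate cancer cells. Its promoter is shown since it is the most abundant target here and holds 3 of the motifs searched, packed together. The window is chr17:28486150-28486399 on the minus strand, 250 bases upstream of a RefSeq start (GRCm38.p6) that lies inside the gene's span in the table. Capitals mark overlapping matches to CAGACA, a SMAD element, at -173 to -168 and CACGTG, an E-box whose ACGTG core is also that of a hypoxia element, at -169 to -164.
Fkbp5 promoter: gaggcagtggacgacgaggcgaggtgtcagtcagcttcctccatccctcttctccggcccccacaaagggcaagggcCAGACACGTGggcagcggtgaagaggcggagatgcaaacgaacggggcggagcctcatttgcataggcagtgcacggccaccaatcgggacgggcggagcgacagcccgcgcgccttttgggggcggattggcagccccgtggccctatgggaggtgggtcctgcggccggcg
Fkbp5 had 65.0 RPKM in shFAK NE and 70.8 in shFAK vehicle cells, against 59.7 in shNC NE and 64.8 in shNC vehicle cells. The length of Fkbp5 in the table is 6363 bases, against 9468 bases of merged exons in GENCODE M21. With the longer length its RPKM, and its level over that of other genes, would be lower in all 4 libraries. In each line the NE library was the lower one. Both shFAK values were above both shNC values, with shFAK NE and shNC vehicle nearly level. The log2 ratio of NE over vehicle was -0.12 (99% interval -0.17 to -0.07) in shFAK cells and -0.12 (-0.17 to -0.07) in shNC cells. The difference of these responses was -0.00 (-0.07 to 0.07). The log2 ratio of shFAK over shNC was 0.12 (0.07 to 0.18) with NE and 0.13 (0.08 to 0.17) with vehicle. Neither term was called by edgeR, with adjusted p-values of 0.256 for hairpin and 0.380 for NE. Its paralogue Fkbp4, the co-chaperone FKBP52 that favours receptor activity, was called lower in shFAK, and the RPKM of Fkbp5 over that of Fkbp4 was 0.357 in shFAK NE and 0.392 in shFAK vehicle, against 0.242 in shNC NE and 0.295 in shNC vehicle.

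Mme (ENSMUSG00000027820, chr3:63241537-63386030, plus strand) encodes neprilysin, also called CD10, a membrane peptidase that cuts small signalling peptides at the cell surface. In human prostate it is a luminal enzyme that androgen raises and that is often lost in cancer. It had 1458 counts in shFAK NE and 1687 in shFAK vehicle, against 609 in shNC NE and 846 in shNC vehicle. As levels these were 5.26 and 5.51 RPKM in shFAK NE and shFAK vehicle cells, against 1.98 and 2.47 RPKM in shNC NE and shNC vehicle cells. Both shFAK libraries stood well above both shNC libraries. With NE, shFAK was 2.65-fold higher than shNC (99% interval 2.35 to 3.02), a log2 ratio of 1.41. With vehicle, shFAK was 2.22-fold higher (2.00 to 2.48), a log2 ratio of 1.15. The edgeR hairpin term was 1.28 ± 0.09 (SE) with an adjusted p of 3.46e-40, and Mme was the 1 of 5 genes this term called, where it called 35.7% of all genes, 19.5% higher and 16.2% lower.

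Between NE and vehicle Mme met neither rule. NE over vehicle gave a log2 ratio of -0.07 (99% interval -0.20 to 0.07) in shFAK cells and -0.32 (-0.52 to -0.12) in shNC cells. The NE term of -0.18 ± 0.09 (SE) was not called by edgeR, with an adjusted p of 0.179. The response in shFAK minus that in shNC was 0.25 (0.02 to 0.49).

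Mme is a long gene, 11542 bases in the table, and 94.8% of the genes that passed the filter were shorter. Ratios of shFAK over shNC followed gene length in these libraries: across the 12351 genes, which are not independent replicates, Spearman's rho was 0.47 with NE and 0.32 with vehicle. Among the 1004 genes of at least 10000 bases the median log2 ratio was 0.36 with NE and 0.17 with vehicle, against -0.01 and -0.01 among the others. Of these 1004 genes, 14 with NE and 9 with vehicle were at or above the ratio of Mme, counts that include Mme itself. With the length trend removed, the log2 ratio of Mme was 1.10 with NE and 1.00 with vehicle. The second of these, 0.996 before rounding, no longer met the size rule, and the edgeR hairpin term of 1.05 was still called. Beyond these values the part of length in the Mme result was not tested.

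**Figure D3:**
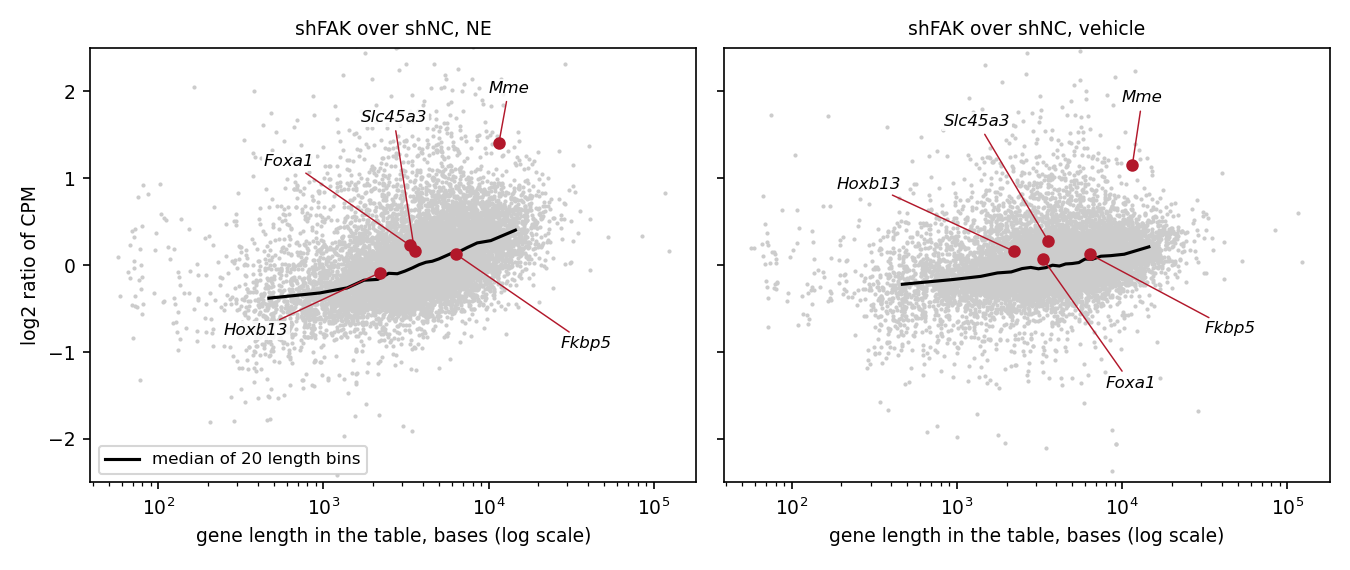
Log2 ratio of CPM of shFAK over shNC with NE and with vehicle against gene length (log axis) for 12351 genes in grey, with the median of 20 length bins in black and the 5 genes that passed the filter in red. There are 33 genes beyond the limits of the vertical axis. Mme, at 1.41 and 1.15, lies far above the line at its length, and the other 4 red genes lie near it.

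The Mme promoter is shown as that of the gene that differed between the lines. The window is chr3:63294961-63295210 on the plus strand, 250 bases upstream of 1 of 3 RefSeq starts (GRCm38.p6), inside the gene's span in the table. It holds none of the motifs searched, so it has no capitals, and it has 2 CpG against 27 in the windows of each of the other starts, which overlap annotated exons. The median over all 32851 windows was 6 CpG. The sequence checked just after the start of the window shown was not found in a GENCODE M21 transcript of Mme. That after each of the other starts was found.
Mme promoter: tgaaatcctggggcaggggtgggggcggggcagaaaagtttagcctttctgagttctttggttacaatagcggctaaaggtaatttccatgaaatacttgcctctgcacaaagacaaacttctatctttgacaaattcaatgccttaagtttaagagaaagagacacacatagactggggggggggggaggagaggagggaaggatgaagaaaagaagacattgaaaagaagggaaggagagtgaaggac
The table gives 1 count per gene, so the use of these starts was not measured.

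The 3 protein-coding genes whose profile over the 4 libraries was nearest to that of Mme, among 9382 candidates with a mean of at least 5 CPM, were Capn6, Mturn and Syne1, at Euclidean distances of 0.0786, 0.0944 and 0.0965 between centred log2 CPM. Capn6, a calpain-family protein, had 47.4 and 48.9 CPM in shFAK NE and shFAK vehicle, against 18.5 and 21.5 CPM in shNC NE and shNC vehicle. The log2 ratios of shFAK over shNC were 1.35 and 1.18 for Capn6, 1.34 and 1.27 for Mturn and 1.38 and 1.06 for Syne1, with NE and with vehicle in each case. Ratios near those of Mme follow from the way these genes were picked and are not support for the Mme result.

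Mme is also a surface marker of some fibroblasts, so stromal markers were read beside it. Of 10 fibroblast and smooth muscle markers, 3 passed the filter, and edgeR called all 3 higher in shFAK, where it called 19.5% of all genes higher. DESeq2 called 0 of them, with Acta2 and Pdgfra at adjusted p-values of 0.0612 and 0.0827 and none given for Col1a1. Acta2, smooth muscle actin, had 17.1 and 24.4 CPM in shFAK NE and shFAK vehicle, against 13.8 and 15.3 CPM in shNC NE and shNC vehicle. Pdgfra, a growth factor receptor of mesenchymal cells, had 12.4 and 12.3 CPM in shFAK NE and shFAK vehicle, against 7.43 and 9.32 CPM in shNC NE and shNC vehicle. The third, Col1a1, had 24 and 24 counts in shFAK NE and shFAK vehicle, against 4 and 11 in shNC NE and shNC vehicle. It passed the filter through the shFAK NE library alone, at 1.03 CPM of the total count, so its call is not counted as support. The defining matrix genes Dcn and Lum were at 0 counts in all 4 libraries, and the list summed to 30.9 and 37.8 CPM in shFAK NE and shFAK vehicle, against 21.6 and 25.02 CPM in shNC NE and shNC vehicle. The part of these markers in the Mme result was not tested.

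Slc45a3 (ENSMUSG00000026435, chr1:131962967-131982969, plus strand) encodes prostein, a sugar transporter family protein that is prostate-restricted and androgen-induced in humans. It had 1.46 RPKM in shFAK NE and 1.25 in shFAK vehicle cells, against 1.31 in shNC NE and 1.02 in shNC vehicle cells, from 108 to 125 counts. The NE library was the higher one in each line, and the shFAK and shNC values overlapped. At this depth the 99% intervals of all 4 log2 ratios included 0. They were -0.32 to 0.65 for shFAK over shNC with NE and -0.22 to 0.80 with vehicle. For NE over vehicle they were -0.26 to 0.72 in shFAK cells and -0.15 to 0.86 in shNC cells. Neither term was called by edgeR, with adjusted p-values of 0.347 for hairpin and 0.307 for NE. Another gene, Gm29103, overlaps 13.5% of the Slc45a3 exons on the same strand, and how the authors counted such reads is not given in the sources used here.

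Tmprss2 (ENSMUSG00000000385, chr16:97564684-97611195, minus strand), a membrane serine protease of secretory epithelium and the androgen-driven partner of ERG fusions in human prostate cancer, had 0 counts in all 4 libraries. The limit set here was 3 counts, which is 0.0395 RPKM in shFAK NE and 0.0358 in shFAK vehicle, against 0.0356 in shNC NE and 0.0321 in shNC vehicle. The 95% Poisson interval of a count of 0 reaches a little higher, to 3.69 counts. Its promoter is shown as that of a classic target with no reads. The window is chr16:97611196-97611445 on the minus strand, 250 bases upstream of the RefSeq start (GRCm38.p6), and it holds none of the motifs searched, so it has no capitals.
Tmprss2 promoter: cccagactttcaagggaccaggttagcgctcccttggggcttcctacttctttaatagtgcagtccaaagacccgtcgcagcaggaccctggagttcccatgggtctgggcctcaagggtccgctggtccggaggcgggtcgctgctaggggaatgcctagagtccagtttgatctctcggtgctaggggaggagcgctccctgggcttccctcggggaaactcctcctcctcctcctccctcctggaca
The length of Tmprss2 in the table is 3159 bases, against 7302 bases of merged exons in GENCODE M21.

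Ndrg1 (ENSMUSG00000005125, chr15:66929321-66969640, minus strand) encodes a differentiation- and stress-linked cytoplasmic protein that androgen and hypoxia induce in human cells. It had 1 count in shFAK NE and 0 in shFAK vehicle, shNC NE and shNC vehicle. All were within the set limit of 3 counts, which is 0.0154 to 0.0189 RPKM. The 95% Poisson interval of a count of 1 reaches 5.57 counts. An antisense gene, Gm17035, overlaps 6.35% of its exons. Its paralogues were present. Ndrg2 had 22.4 and 18.9 CPM in shFAK NE and shFAK vehicle, against 16.5 and 12.7 CPM in shNC NE and shNC vehicle. The shFAK libraries were both above the shNC ones. Ndrg2 was called higher by edgeR in shFAK (log2 0.51 ± 0.10 SE, adjusted p = 1.15e-05) and with NE (0.31 ± 0.10, adjusted p = 0.0291). These terms called 19.5% and 5.04% of all genes higher. DESeq2 called Ndrg2 higher in shFAK (adjusted p = 0.0441) and gave no adjusted p for its NE term (0.31 ± 0.19 SE). Ndrg4 had 93 counts in shFAK NE against 47 in shFAK vehicle, 40 in shNC NE and 37 in shNC vehicle. Ndrg3 stayed between 32.5 and 34.0 CPM.

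Pmepa1 (ENSMUSG00000038400, chr2:173224458-173276533, minus strand) encodes a membrane adaptor that recruits NEDD4-type ligases, dampens TGF-beta signalling and is androgen-induced in human prostate cells. It had 9 counts in shFAK NE and 2 in shFAK vehicle, against 0 in shNC NE and 0 in shNC vehicle. The 9 counts (95% Poisson interval 4.12 to 17.1) correspond to 0.0763 RPKM. Pmepa1 did not pass the filter on low counts. With no filter it joined Mme past the size rule in shFAK over shNC with NE, which made 2 of the 8 genes. At that setting, which took in every gene with any count, the rule called 538 genes higher, against 323 of 12351 (2.62%) with the filter. The number of genes tested without the filter is not given here, so 538 is not a share and cannot be set against 2.62%. For Pmepa1 this rests on 9 counts in shFAK NE against 0 in shNC NE. A set of 119 genes, Pmepa1 included, had 8 or more counts in the shFAK NE library and no more than 2 in each of the others, while 4, 7 and 9 genes had that profile in shFAK vehicle, shNC NE and shNC vehicle. The shFAK NE library also had reads on 23121 genes, against 20442 in shFAK vehicle, 20841 in shNC NE and 21678 in shNC vehicle. The part of this library's low counts in the Pmepa1 result was not tested.

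Across the 5 genes that passed the filter, the response to NE in shFAK minus that in shNC met the size rule in none, where 0.915% of all genes met it. The differences were 0.25 for Mme, 0.16 for Foxa1 (99% interval 0.10 to 0.22), -0.00 for Fkbp5, -0.12 for Slc45a3 (-0.80 to 0.56) and -0.25 for Hoxb13. Each comparison of 2 libraries shares a library with 2 others, so the ratios of a gene are not independent of each other. The widest range of log2 CPM over the 4 libraries was 1.47 for Mme, against 0.50 for Slc45a3, 0.42 for Hoxb13, 0.25 for Fkbp5 and 0.23 for Foxa1.

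Of 15 chaperones and co-chaperones of steroid receptors, all 15 passed the filter, and edgeR called 10 lower and 0 higher in shFAK, where it called 16.2% of all genes lower and 19.5% higher. The median log2 ratio of shFAK over shNC was -0.25 with NE and -0.20 with vehicle, against 0.02 and 0.00 over all genes, and 0 of 15 ratios were positive in either pair. Fkbp4 had 509 and 505 CPM in shFAK NE and shFAK vehicle, against 689 and 613 CPM in shNC NE and shNC vehicle (log2 -0.36 ± 0.08 SE, adjusted p = 0.000168). Cdc37, which brings clients to HSP90, had log2 ratios of -0.50 with NE and -0.28 with vehicle. Dnajb1, an HSP40 co-chaperone, had -0.42 with NE and -0.36 with vehicle. Ptges3, the HSP90 co-chaperone p23, had -0.24 with NE and -0.37 with vehicle, and reads could be shared with its near-identical copy Ptges3-ps. Several other chaperones of the list also had near-identical copies, some with longer matches, so shared reads are not a limit of Ptges3 alone. The count of lower calls was 11 with the length trend removed, 7 by DESeq2, 6 with libraries scaled by total count alone and 0 against a 1.2-fold threshold.

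Of 26 coregulators that the receptor recruits, 24 passed the filter, and edgeR called 11 higher and 2 lower in shFAK, against 19.5% and 16.2% of all genes. In each hairpin pair 16 of the 24 ratios were above 0. The median log2 ratio of shFAK over shNC was 0.24 with NE and 0.13 with vehicle. Ep300, the acetyltransferase p300, had log2 ratios of 0.88 and 0.40, the corepressor Ncor1 0.59 and 0.26, the coactivator Ncoa1 0.49 and 0.35 and the coactivator Ncoa2 0.64 and 0.15, with NE and with vehicle in each case. With NE, edgeR called 6 of the 24 lower and 0 higher, where 7.29% of all genes were called lower. Ep300 had 91.3 and 49.5 CPM with NE in shFAK and shNC cells, against 103 and 78.0 CPM with vehicle. With the length trend removed, 5 were called higher and 5 lower in shFAK, and 1 lower with NE. By DESeq2 3 were higher and 2 lower in shFAK and 0 lower with NE, where 2 of the 6 had no adjusted p. Against a 1.2-fold threshold 1 was higher and 0 lower in shFAK, and 0 lower with NE. With no filter 6 were higher in shFAK.

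Of 40 other genes known as androgen-induced in prostate cells, 29 passed the filter. In shFAK edgeR called 8 higher and 0 lower, where it called 19.5% and 16.2% of all genes, with a median log2 ratio of 0.19 with NE and 0.03 with vehicle. Steap4, a metalloreductase of the plasma membrane, had 18.2 and 19.7 CPM in shFAK NE and shFAK vehicle, against 6.71 and 6.25 CPM in shNC NE and shNC vehicle (log2 1.55 ± 0.12 SE, adjusted p = 1.44e-37). Arfgef3 had log2 ratios of shFAK over shNC of 1.15 with NE and 0.51 with vehicle, Adamts1, a secreted protease, 0.78 and 0.60, and Sord, which makes fructose from sorbitol and could share reads with its near-identical copy Gm6652, 0.65 and 0.92. With NE 3 of the 29 were called lower, where 7.29% of all genes were, among them Zbtb16, a zinc finger repressor that glucocorticoids also induce, at log2 ratios of -0.34 in shFAK and -0.87 in shNC, and Arfgef3, at -0.14 and -0.78. With the length trend removed, 7 were higher and 2 lower in shFAK, and the median with vehicle was -0.07. With NE, DESeq2 called 1 lower and gave no adjusted p for the other 2, and 1 was lower against a 1.2-fold threshold. Pbsn, the mouse gene of the prostate secretory protein probasin, and Msmb, another secretory product, had 0 counts in every library.

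**Figure D4:**
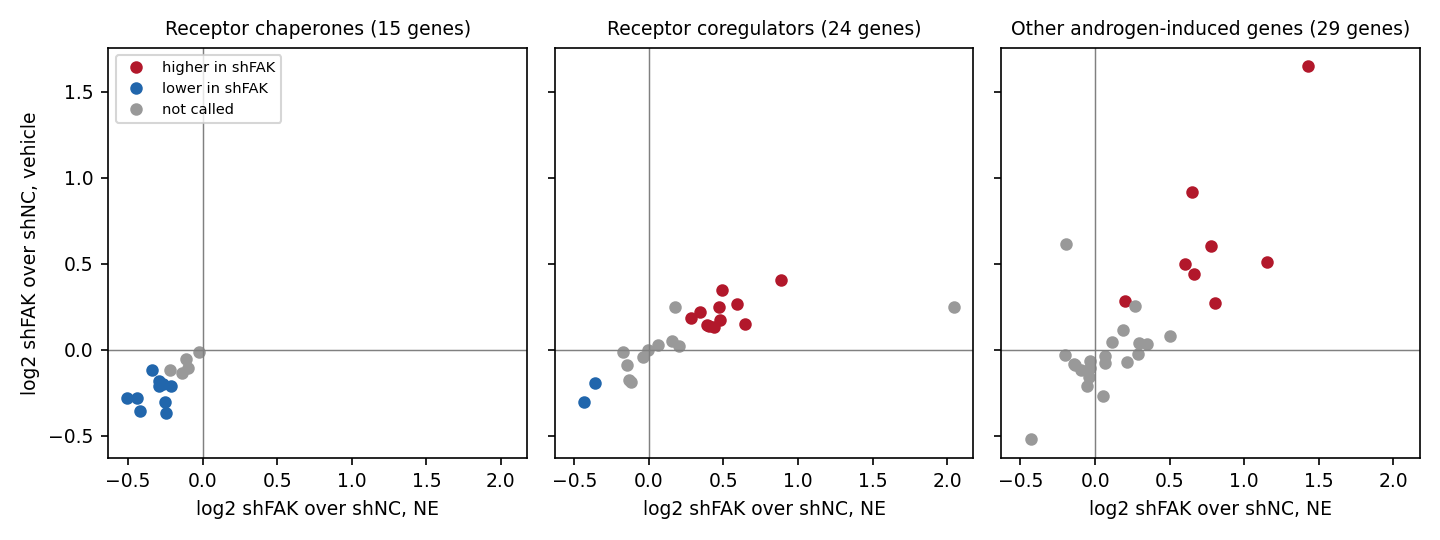
Log2 ratio of CPM of shFAK over shNC with vehicle against that with NE, 1 point per gene, for chaperones (15 genes), coregulators (24) and other androgen-induced genes (29). Colours give the edgeR hairpin call. All 15 chaperones lie below 0 on both axes, and 16 of the 24 coregulators are above 0 with NE.

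Of 20 enzymes and cofactors of androgen synthesis and breakdown, 12 passed the filter, and edgeR called 1 higher, Hsd17b11, and 1 lower, Por, in shFAK, where it called 19.5% and 16.2% of all genes. With NE it called 1 higher, Cyb5a, where 5.04% of all genes were. Neither Hsd17b11 nor Cyb5a was called by DESeq2. Sult2b1, a sulfotransferase, met the size rule higher in shFAK with vehicle, where 1.42% of the tested genes did, and was not called by edgeR. Its log2 ratio was 1.11 (99% interval 0.14 to 2.34), from 39 counts in shFAK vehicle against 19 in shNC vehicle. Sult2b1 reached 1 CPM of the total count in the shFAK libraries alone, so this result is not counted as support. Por, the reductase that feeds electrons to microsomal P450 enzymes, had 151 and 156 CPM in shFAK NE and shFAK vehicle, against 239 and 235 CPM in shNC NE and shNC vehicle (log2 -0.63 ± 0.09 SE, adjusted p = 4.21e-11). Cyp11a1 and Hsd3b1, which start steroid synthesis, had 0 counts in all 4 libraries, and Cyp17a1 had 3 counts in shFAK NE and 0 in the others. The list's median log2 ratio of shFAK over shNC was -0.07 with NE and 0.10 with vehicle.

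Some targets, Fkbp5 among them, are shared with the glucocorticoid receptor, so that receptor and its targets were listed. Nr3c1, the glucocorticoid receptor, had 7 counts in shFAK NE, 0 in shFAK vehicle, 2 in shNC NE and 2 in shNC vehicle. Of 17 listed genes 13 passed the filter, and edgeR called 3 higher and 0 lower in shFAK, where it called 19.5% and 16.2% of all genes. Klf9, a Krüppel-like factor, had log2 ratios of shFAK over shNC of 0.63 with NE and 0.31 with vehicle, and Zbtb16 0.81 and 0.27. The list's medians were 0.19 and 0.20.

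Beside Pmepa1, 15 of 20 genes of TGF-beta and SMAD signalling passed the filter, and edgeR called 6 higher and 1 lower in shFAK, against 19.5% and 16.2% of all genes, with a median log2 ratio of 0.15 with NE and 0.25 with vehicle. The lower gene was Ctgf, a matrix signalling protein, at log2 ratios of -0.46 with NE and -0.46 with vehicle. An antisense gene covers 23.2% of its exons, and the library kit does not mark strand. Id3, an inhibitor of helix-loop-helix factors, was called higher in shFAK (0.59 and 0.69) and with NE (0.47 in shFAK and 0.58 in shNC). With NE, edgeR called 2 of the 15 higher and 1 lower, where it called 5.04% and 7.29% of all genes. DESeq2 called 0 of the 15 with NE and gave no adjusted p for the NE term of Id3. Smad6, an inhibitory SMAD, had 0.36 and 0.54 in shFAK over shNC, and the receptor Tgfbr1 0.48 and 0.44. Beside Ndrg1, 18 of 23 genes of hypoxia and of the Ndrg family passed the filter, and edgeR called 4 higher and 2 lower in shFAK, shares near the 19.5% and 16.2% of all genes, with a median log2 ratio of 0.11 with NE and 0.00 with vehicle. Against a 1.2-fold threshold 2 of the TGF-beta genes were higher in shFAK, and 2 higher and 0 lower of the hypoxia and Ndrg genes.

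Of the 7 luminal markers that passed the filter, edgeR called 3 lower and 0 higher in shFAK, against 16.2% and 19.5% of all genes and 1 lower with the length trend removed, with a median log2 ratio of shFAK over shNC of -0.24 with NE and -0.21 with vehicle. Krt8, a luminal keratin that could share reads with its near-identical copy Krt8-ps, had 2.00 and 1.88 CPM in shFAK NE and shFAK vehicle, against 6.19 and 5.17 CPM in shNC NE and shNC vehicle. Cldn3 had log2 ratios of shFAK over shNC of -0.45 with NE and -0.21 with vehicle. The list summed to 689 and 601 CPM in shFAK NE and shFAK vehicle, against 846 and 651 CPM in shNC NE and shNC vehicle. Of 8 basal markers 5 passed the filter, with 1 called higher in shFAK. Of 10 neuroendocrine markers 1 did, Ncam1, which was called higher by edgeR and not by DESeq2, at 0.26 and 0.20. Of 10 immune and endothelial markers 1 did, Cd68, which was not called, and that list summed to at most 1.66 CPM. The part of these markers in the results for the 8 genes was not tested.

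RefSeq promoter windows (GRCm38.p6), 250 bases before each start, were matched by symbol for 5 of the 8 genes, in 8 windows, and searched on both strands. The steroid response half-site AGAACA was in 0 of 8 windows, where 16.1% of 32851 windows of all genes hold it, and CAATAAA, a HOXB13-type motif, in 0 of 8, where 4.20% hold it. TGTTTAC or TGTTTGC was in 1, that of Foxa1 (7.29% of all windows). CACGTG was in 1, that of Fkbp5 (6.02%), as was ACGTG, which overlaps it (16.6%). CAGACA was in 2, that of Fkbp5 and 1 of the Mme windows (17.1%). A match is a run of letters and not a measured site. Hoxb13, Ndrg1 and Pmepa1 have no window here.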

How the data were processed

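RNA was measured in 4 libraries, shFAK and shNC cells with norepinephrine or vehicle. The authors deposited raw counts of reads for 52636 genes in 1 table. The submitters' processing notes name the mm10 build, HISAT2 2.0.5 and featureCounts 1.5.0-p3, and per the labels' protocols the NEBNext Ultra kit does not mark strand. The annotation release, strand setting and treatment of multi-mapping reads are not given in the sources used here. Coordinates equalled GENCODE M21 for 95.2% of identifiers found there. Columns were matched by title, with 0 left unused.

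From the deposited counts, genes with at least 1 CPM in 1 library were kept (12351), scaled by TMM and tested in edgeR 4.0.16 under R 4.3.3. DESeq2 1.42.0 was an alternative. Total counts limit the precision as the intervals show, and without molecular identifiers PCR duplicates cannot be told from molecules, so intervals and limits cover counting error only. The text names the 8 genes, Ptk2, and from each of 12 lists up to 4 genes with the largest mean hairpin ratio and up to 2 for norepinephrine, at a mean of at least 1 CPM, plus the 3 profiles nearest to Mme. Dcn, Lum, Col1a1, Krt18, Epcam, Cdh1, Pbsn, Msmb, Cyp11a1, Hsd3b1, Cyp17a1, Nr3c1, Sult2b1 and Ndrg3 were named after their values were seen. The members and lists were chosen with earlier results of these data known. Some genes of the lists are not reported here. Copies were searched with minimap2 2.31 at 95% identity. The methods were tested on simulated data. Settings tried were other scalings, filters, prior counts, thresholds and tests, and a length and GC trend taken off.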

Additional observations from a re-analysis of the deposited data

How the results depend on the processing

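Counts among the 8 genes stayed as reported under the alternatives run, with these exceptions. With no filter, where more genes were tested, 2 genes, Mme and Pmepa1, met the size rule in shFAK over shNC with NE, against 1. Without the length trend, 0 did with vehicle, against 1, the hairpin term called 2, Foxa1 and Mme, against 1, and the NE term 0, against 1. Scaling by total count alone also gave 2 for the hairpin term. The NE term called 0 with no filter, with DESeq2 and with a 1.2-fold threshold. For Foxa1 and Hoxb13 the cause was not tested. No called value reversed. Uncalled ratios near 0 changed sign in places, such as Hoxb13 in shFAK over shNC with NE (-0.14 to 0.07).

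Over all genes, the size rule gave 401 calls in shFAK over shNC with NE, against 663 with no filter, 136 at 5 CPM and 1391 at 1.5-fold. With vehicle it gave 232, against 86 at 5 CPM and 653 at 1.5-fold. For NE over vehicle in shFAK it gave 108, against 403 with no filter, 14 at 5 CPM, 67 with a prior count of 10 and 210 at 1.5-fold. In shNC it gave 106, against 173, 29, 62 and 460, and 50 among protein-coding genes. For the difference of responses it gave 113, against 183 with no filter, 22 at 5 CPM and 231 at 1.5-fold. The hairpin term called 4412 genes, against 1719 by DESeq2 and 1148 at 1.2-fold. The NE term called 1524, against 948 with no filter, 938 with the trend off, 112 by DESeq2 and 86 at 1.2-fold. Scaling by total count alone put the median log2 ratio of all genes in shFAK over shNC with NE at 0.11, against 0.02, and split the hairpin calls into 2901 higher and 1201 lower, against 2409 and 2003. Upper-quartile scaling split the NE calls into 844 higher and 753 lower, against 623 and 901. With the trend off, NE over vehicle in shNC split into 32 higher and 83 lower, against 45 and 61.

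No paired analysis was possible because each group had 1 library. Leaving out a library was not possible for the same reason. Depth limits Slc45a3, Pmepa1, Ndrg1 and Tmprss2 most.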
